A study of Homo sapiens with 4 samples.

Results

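FOXM1, PLK1, CDK1 and CDCA3 are 4 genes that act at the entry into mitosis. They were taken by symbol from the authors' deposited up-and-down table, where each stands on 1 line among the down genes and on a probe set with no other symbol. Their 4 probe sets were then looked up among the 33297 probe sets measured on every array. The table names 759 probe sets, was selected on the same 4 arrays, and the 4 genes were chosen with their values in view, so their differences below are descriptions and carry no test.

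The study measured total RNA of HCT116, a human colorectal carcinoma cell line, on 4 single-colour Affymetrix arrays. The shControl group (2 arrays, genotype given as wild-type) holds cells transfected with a control shRNA, and the shPCAF group (2 arrays, genotype given as PCAF knock-down) holds cells transfected with an shRNA against PCAF, the lysine acetyltransferase also named KAT2B. All cultures grew asynchronously, and the series title places the comparison among studies of genes regulated by p27 (CDKN1B), which inhibits cyclin-dependent kinases. The labels do not say whether replicates were separate cultures, so errors and p-values measure array-to-array spread that may be only technical.

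No line of the authors' deposited table carries KAT2B or CDKN1B, so neither the knockdown nor the level of p27 was checked here. The array medians lay between 7.02 and 7.10 on the log2 scale. Of 12 markers of colon epithelium, CDH1 and CLDN7 have a named probe set, with mean log2 signals of 10.31 and 12.00 in shControl cells and 11.41 and 12.75 in shPCAF cells. The other markers of that list, and all 7 fibroblast, 4 macrophage, 5 lymphocyte and 3 endothelial markers, have no named probe set, so their levels were not analysed here.

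Entry into mitosis is driven by CDK1, the kinase that becomes active when it binds cyclin B and when inhibitory phosphates placed by WEE1 and PKMYT1 are removed by CDC25 phosphatases. PLK1, a polo-like kinase, promotes that switch and later acts at centrosomes, kinetochores and the cleavage furrow. FOXM1 is a forkhead transcription factor of proliferating cells which, with the MYB-MuvB complex, turns on genes of G2 and mitosis, PLK1 among them. CDCA3, also called TOME-1, was described in frog egg extracts as a trigger of mitotic entry that promotes the breakdown of WEE1.

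The 4 genes gave lower signals in both shPCAF arrays than in both shControl arrays. CDCA3 was 2.84-fold lower, FOXM1 2.33-fold, PLK1 2.06-fold and CDK1 1.73-fold, where a fold is 2 to the power of the difference between group means of log2 signal. Across the whole array, both shPCAF arrays lay below both shControl arrays in 36% of probe sets, so a lack of overlap alone does not set these genes apart. In bulk RNA of asynchronous cultures, fewer cells in G2 and mitosis and less RNA per cell cannot be told apart.

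The promoters of these genes are shown because they hold the letters by which cell cycle genes of this kind are usually recognised. The cell cycle genes homology region (CHR, searched as TTTGAA) is the element bound by MuvB complexes, and the CCAAT box is bound by NF-Y. RefSeq promoter windows on GRCh38.p14, from 250 bases before to 50 after an annotated transcript start, were found for CDCA3, PLK1 and CDK1, so 3 of the 4 symbols matched. Each stretch below runs 5′ to 3′ along the gene from 100 bases before the start through the 20 bases that follow it, with matches to TTTGAA and CCAAT, or to their reverse complements, in capitals.
CDCA3 (chr12:6851267-6851386, minus strand): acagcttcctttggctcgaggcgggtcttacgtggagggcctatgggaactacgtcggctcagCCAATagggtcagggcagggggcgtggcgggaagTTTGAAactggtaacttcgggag
PLK1 (chr16:23678789-23678908, plus strand): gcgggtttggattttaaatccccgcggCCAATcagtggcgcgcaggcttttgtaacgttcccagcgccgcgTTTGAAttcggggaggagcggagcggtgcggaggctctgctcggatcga
CDK1, second annotated start (chr10:60778378-60778497, plus strand): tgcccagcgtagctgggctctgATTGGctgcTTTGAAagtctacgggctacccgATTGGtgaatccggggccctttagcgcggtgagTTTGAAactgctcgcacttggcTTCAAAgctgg

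All 3 genes share the same arrangement, a CCAAT box followed by TTTGAA close to the start. Positions give the first base of a match, counted from the transcript start. In CDCA3 the CCAAT box begins at -37 and TTTGAA at -3, which is 34 bases further on. In PLK1 they begin at -73 and -29, 44 bases apart. At the second start of CDK1 the CCAAT box, on the opposite strand, begins at -46 and TTTGAA at -13, 33 bases apart. That promoter also holds a further CCAAT box at -78 and TTTGAA at -69, and the reverse complement of TTTGAA at position 10 after the start.

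The first annotated CDK1 start has TTTGAA at -161 and CCAAT at -150, in the reverse order. It also holds the only match among these windows to the forkhead core TGTTTA, at -207 on the opposite strand. No match overlaps another in these windows. Searched on both strands, TTTGAA occurs in 15.2% of the 35116 RefSeq windows of this length, CCAAT in 34.6%, TGTTTA in 12.3%, and TTTGAA together with CCAAT in 5.9%. A match in these letters is a description and was not tested as a binding site.

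**Figure D1:**
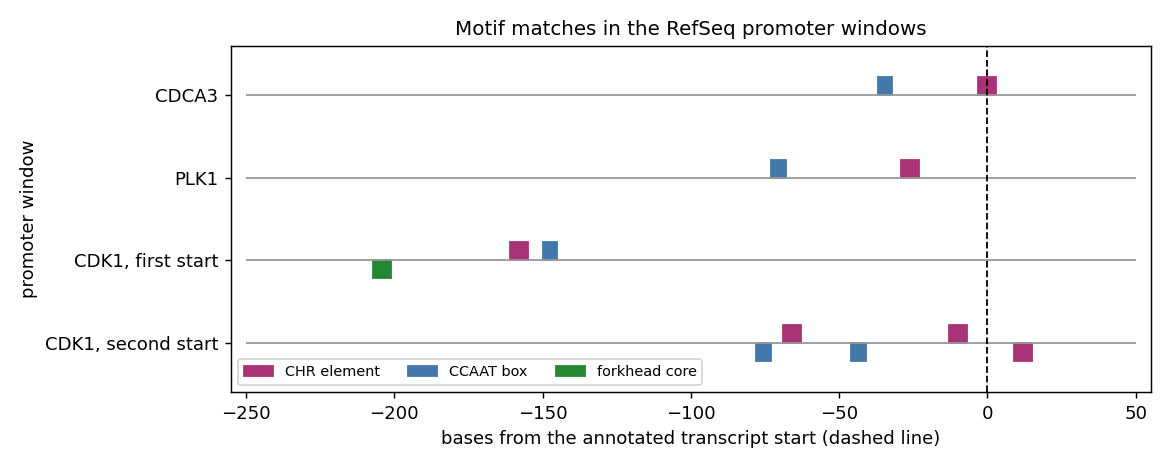
Matches to TTTGAA (CHR element), CCAAT and the forkhead core in the promoter windows of CDCA3, PLK1 and the first and second annotated starts of CDK1, by distance in bases from the transcript start (dashed line). Boxes above a line are on the gene's strand and boxes below it on the opposite strand. In CDCA3 and PLK1, and at the second CDK1 start, a CCAAT box lies 33 to 44 bases before a TTTGAA near the start.

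FOXM1, the transcription factor of the group, had log2 signals of 11.49 and 11.56 in shControl cells and of 10.23 and 10.39 in shPCAF cells. Both shPCAF values lay at least 1.10 below both control values. The difference of shPCAF minus shControl was -1.22 ± 0.09 (moderated SE, 2 arrays per group), which leaves 42.9% of the control signal. Over all probe sets, 66 had a larger fall, or 0.198%.

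PLK1, the polo-like kinase, also had groups that did not overlap. It read 12.75 and 12.80 on the log2 scale in shControl cells, against 11.65 and 11.81 in shPCAF cells. The gap between the groups was 0.94, against 0.05 between the control replicates and 0.15 between the shPCAF replicates. The difference was -1.04 ± 0.08 (moderated SE), or 48.5% of the control signal, and 138 probe sets (0.414%) had a larger fall.

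CDK1, the kinase itself, differed least. Its log2 signals were 10.54 and 10.35 in shControl cells and 9.57 and 9.73 in shPCAF cells. It also had the widest spread between the control replicates, and the gap between the groups was 0.61. The difference was -0.79 ± 0.10 (moderated SE), which leaves 57.9% of the control signal. A larger fall was seen in 443 probe sets (1.33%).

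CDCA3, the WEE1 regulator, differed most. The control arrays gave log2 signals of 9.66 and 9.74, and the shPCAF arrays gave 8.09 and 8.29. The lower control array stood 1.36 above the higher shPCAF array, the widest gap of the 4 genes. The difference was -1.51 ± 0.10 (moderated SE), or 35.2% of the control signal, and 17 of the 33297 probe sets (0.0511%) had a larger fall. Among probe sets with a single symbol in the authors' deposited table, 3 had a larger one.

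**Figure D2:**
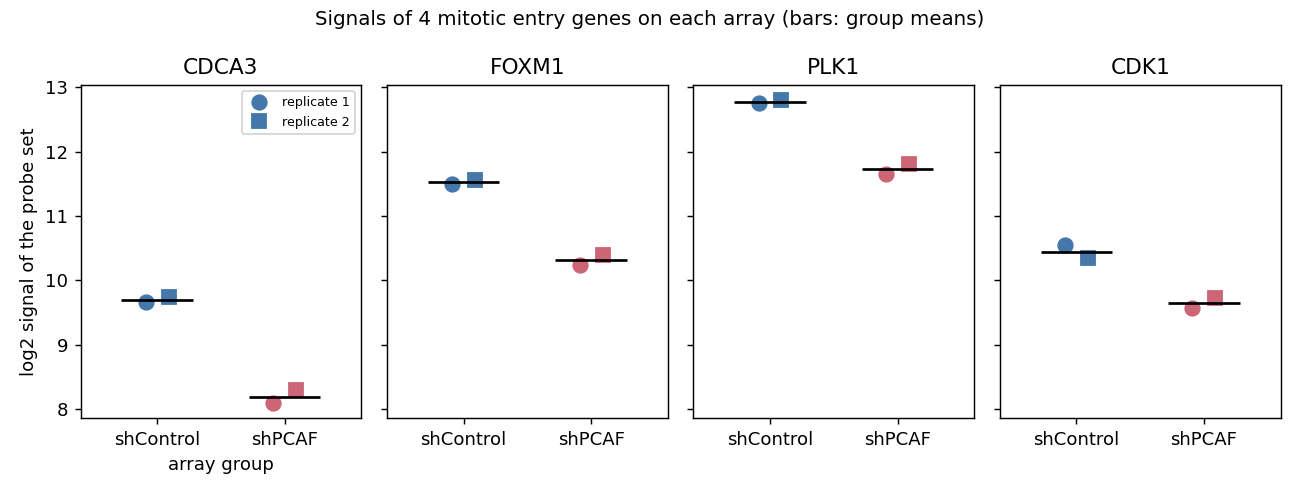
Log2 signal of the CDCA3, FOXM1, PLK1 and CDK1 probe sets (vertical axis) on the 2 shControl and 2 shPCAF arrays, with circles for replicate 1, squares for replicate 2 and bars for group means. In each gene both shPCAF arrays lie below both shControl arrays, by a gap of 0.61 in CDK1 to 1.36 in CDCA3.

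The lowest of these signals, 8.09 for CDCA3 on a shPCAF array, stood above that array's median of 7.03. The median difference over all probe sets was -0.05 and the first percentile -0.85 on the log2 scale. CDCA3, FOXM1 and PLK1 lay beyond that percentile and CDK1 just inside it. Background and saturation flags were not used here.

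**Figure D3:**
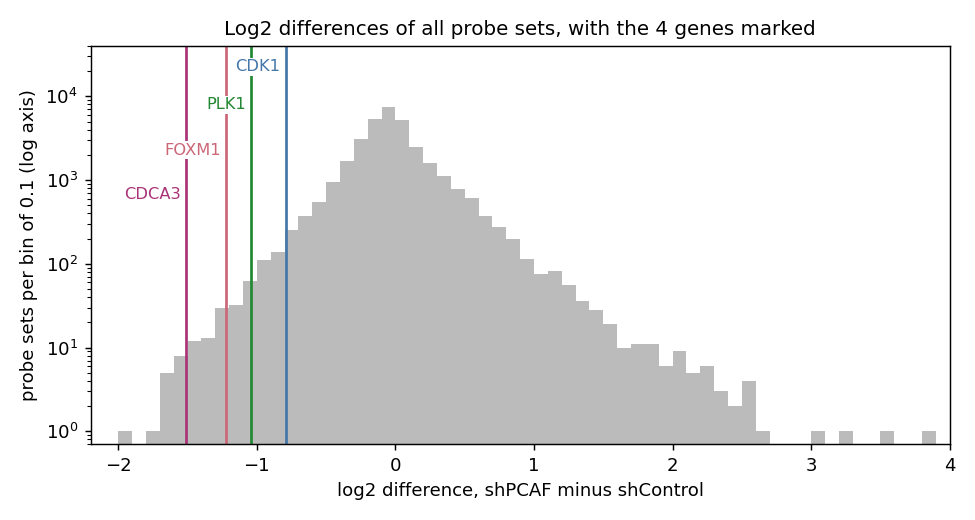
Number of probe sets (log axis) by log2 difference of shPCAF minus shControl in bins of 0.1, with lines at CDCA3 (-1.51), FOXM1 (-1.22), PLK1 (-1.04) and CDK1 (-0.79). The 4 genes lie in the left tail, where 17 probe sets had a larger fall than CDCA3 and 443 a larger fall than CDK1.

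The order of the differences was CDCA3, FOXM1, PLK1, CDK1. Each difference can be taken from 4 pairings of a shPCAF with a shControl array. These gave -1.65 to -1.36 for CDCA3, -1.34 to -1.10 for FOXM1, -1.15 to -0.94 for PLK1 and -0.97 to -0.61 for CDK1. The range of CDCA3 thus stood narrowly apart from that of FOXM1, whereas the ranges of FOXM1 and PLK1 overlapped, as did those of PLK1 and CDK1. The 4 pairings reuse the same arrays, so these ranges are no independent measure of spread, and the order was not tested.

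Log ratios of one gene to another within each array remove what shifts both together. The log2 ratio of CDK1 to CDCA3 was 0.88 and 0.60 in shControl cells and 1.48 and 1.44 in shPCAF cells, a shift of 0.72. That of FOXM1 to PLK1 was -1.26 and -1.24 in shControl cells and -1.43 and -1.42 in shPCAF cells, a shift of -0.18. For PLK1 to CDK1 the shift was -0.25 and for FOXM1 to CDCA3 it was 0.29. In all 6 pairs of the 4 genes the ratios of the 2 groups did not overlap. The same held for 56.3% of all pairs of single-symbol down probe sets, and unequal shifts can also come from unequal response of probe sets, which was not tested.

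The 4 genes also moved alike between the shPCAF replicates. Replicate 2 was higher than replicate 1 by 0.16 for FOXM1, 0.15 for PLK1, 0.16 for CDK1 and 0.20 for CDCA3. Over all probe sets 51.4% were higher in that array, and among the 237 probe sets listed as down 66.7% were. Between the shControl replicates FOXM1, PLK1 and CDCA3 differed by 0.05 to 0.09 in the same direction, and CDK1 differed by -0.19.

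The authors' deposited table gives FOXM1 a value headed fold change of 2.61 with a p-value of 0.0187. In the authors' deposited table PLK1 has 2.23 (p-value 0.0293), CDK1 1.69 (p-value 0.0256) and CDCA3 3.23 (p-value 0.0194). That column does not match the folds computed here from the deposited signals. For CDCA3 and FOXM1 it exceeds the fold of 2.84 and 2.33, and for CDK1 it falls short of 1.73. Why they differ was not tested. The smallest fall on any down line of the authors' deposited table is that of KIF22, at -0.70 on the log2 scale. CDK1 is thus the nearest of the 4 to that edge. A fall at least as large as that of KIF22 was seen in 434 probe sets outside the table, which have no name here.

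The rest of the cell cycle machinery was read from 8 lists holding 180 genes, of which 33 have a named probe set. Besides the 4 genes, 29 are named, of which 26 stand on a probe set with a single symbol and 3 on probe sets with 2 symbols. With limma and Benjamini-Hochberg adjustment over all probe sets, 21 of these 26 were lower and 5 higher in shPCAF cells, with adjusted p from 0.00715 to 0.0226. Over the whole array 5.85% of probe sets were called lower and 7.05% higher, or 12.9% in either direction. Since the table was selected on these arrays, the count of calls among its genes is no independent evidence, and list genes outside it have no value here. All 33 named list genes were called, 28 lower and 5 higher, so that selection had largely settled each call. For the same reason the counts by list and the adjusted p-values of single genes below are descriptions.

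These calls rest on both control arrays. No probe set passed limma's adjustment without shControl replicate 1 (lowest adjusted p = 0.0767) or without shControl replicate 2 (lowest adjusted p = 0.0839), when 6848 and 6849 still had an unadjusted p below 0.05. Without shPCAF replicate 1 the array held 1933 calls and without shPCAF replicate 2 it held 2363, against 4294 with all arrays. Of all calls 54.6% were higher, and 68.0% once the arrays were centred on their medians.

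Of the 30 genes of the mitotic entry network, 6 are named and all 6 were called lower, a count that includes the 4 genes chosen for being lower. PKMYT1, the kinase that places inhibitory phosphates on CDK1, had log2 signals of 10.14 and 10.17 in shControl cells and 9.20 and 9.19 in shPCAF cells. It fell 1.94-fold (limma, adjusted p = 0.00787), so a kinase that restrains CDK1 was lower along with CDK1. The cyclin B genes, the CDC25 genes and WEE1 are on the list but have no named probe set.

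Among MYB-MuvB and DREAM subunits the named genes went both ways. MYBL2, the MYB protein that joins MuvB with FOXM1, fell 1.93-fold, from 11.57 and 11.60 to 10.62 and 10.64 (limma, adjusted p = 0.00798). RBL2, the p130 protein of the repressive DREAM complex, rose 2.24-fold, from 8.49 and 8.60 to 9.59 and 9.84 (limma, adjusted p = 0.0114). The other 14 subunits on the list have no value here.

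Of 52 FOXM1 and MuvB target genes of G2/M, 12 are named and all 12 were called lower. That count includes the same 4 genes. Their median difference was -1.06, against -0.05 over all probe sets, but every down line of the table falls by at least 0.70, so being named on one already set the median low. The other 40 have no value here. KIF20A, a kinesin of cytokinesis, fell by 1.26 ± 0.08 (SE) on the log2 scale. SPAG5, the spindle protein astrin, fell by 1.31 ± 0.07 (SE). CDC20, the mitotic activator of the anaphase-promoting complex, fell by 0.97 ± 0.08 (SE), and the spindle checkpoint protein BUB1B fell by 0.96 ± 0.09 (SE). CDCA8 (borealin) and AURKB, both of the chromosomal passenger complex, had log2 differences of -0.91 and -0.74.

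The namesakes of CDCA3 and PLK1 were read as well. Of 7 cell division cycle associated genes 3 are named, and CDCA5 (sororin, a protector of cohesion) and CDCA8 fell 1.78-fold and 1.88-fold beside CDCA3. The 3 named genes share a name from coexpression and not a protein family. Of 5 polo-like kinases 2 are named. PLK3, a stress-responsive member, read 8.98 and 9.02 in shControl cells and 9.69 and 9.72 in shPCAF cells, and rose 1.63-fold (limma, adjusted p = 0.0117) where PLK1 was lower.

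Ubiquitin ligases of the APC/C and SCF types act before, during and after mitosis. Of 27 such genes 6 are named, 5 called lower and 1 higher, and the other 21 have no value here. ANAPC5 fell 2.53-fold, on a probe set among those of lowest identifier, which no file describes. SKP2, the SCF subunit that targets p27, fell 1.76-fold, from 11.70 and 11.49 to 10.66 and 10.89. ANAPC15 fell 1.77-fold and ANAPC16 rose 1.63-fold.

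Named genes of the preceding phase were lower too. All 8 named genes of the 50 in the G1/S and DNA replication list were called lower, against 5.85% of all probe sets. They are named only because the authors' table selected them on these arrays, so this count is no independent evidence. Their differences ran from -1.22 for GINS2, part of the replicative helicase, to -0.74 for GINS1. ORC1, of the origin recognition complex, fell 2.13-fold and RRM2, a ribonucleotide reductase subunit, 1.94-fold. Among named genes, the lower signals were thus not limited to those of G2 and mitosis, but the other 42 genes of this list have no value here.

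Of 18 CDK inhibitors and G2 arrest genes 3 are named, 2 called higher and 1 lower. GADD45A, which can inhibit the CDK1 and cyclin B complex, rose 2.85-fold, from 8.97 and 8.94 to 10.54 and 10.40 (limma, adjusted p = 0.00756). SESN2, a stress-induced regulator of mTORC1, rose 3.39-fold. CDKN3, a phosphatase that acts on CDKs, fell 1.88-fold.

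**Figure D4:**
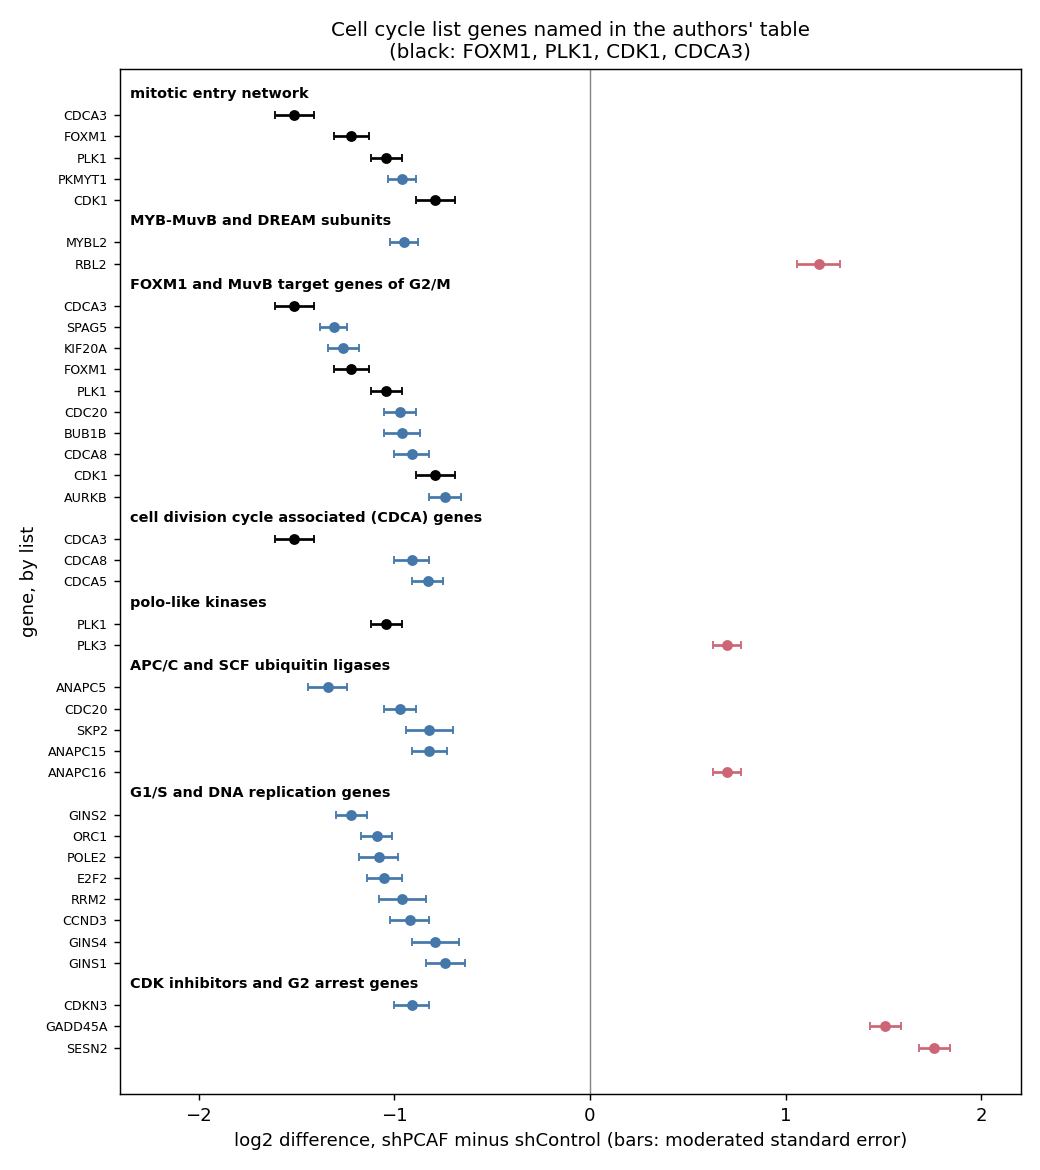
Log2 difference of shPCAF minus shControl with its moderated standard error (horizontal axis) for every gene of the 8 lists that stands alone on a probe set of the authors' table, grouped by list, with CDCA3, FOXM1, PLK1 and CDK1 in black. RBL2, PLK3, ANAPC16, GADD45A and SESN2 lie above 0 and the other genes shown lie below it.

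The CHR letters were also counted over the lists. The letters are read from sequence alone, but the lists were chosen with earlier results known. The named genes among them were selected on these arrays. Of 52 FOXM1 and MuvB target genes 44 have a promoter window, and 31 of the 44 (70.5%) hold TTTGAA, against 18.2% of all 27305 genes with a window. Of 50 G1/S and replication genes 42 have one, and 3 of the 42 (7.14%) hold it. CCAAT was present in 81.8% and 54.8% of those lists and in 39.7% of all genes. As the element is part of how MuvB targets are recognised, its share in that list is background and not a result of this study. Of the 12 named targets 10 have a window, and 7 of the 10 hold TTTGAA. These are BUB1B, CDC20, CDCA8 and SPAG5, besides CDCA3, PLK1 and CDK1, whereas AURKB, KIF20A and a gene on a probe set of 2 symbols lack it.

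The genes most like each of the 4 were found as the 3 nearest of the other 710 single-symbol probe sets of the table, by Euclidean distance over the 4 arrays after subtracting each probe set's shControl mean. The measure follows mainly the size of the difference. Nearest to FOXM1 were ZWINT, a kinetochore protein, at 0.0292, the HSP90 co-chaperone AHSA1 at 0.061 and KIF20A at 0.0667, where the median distance was 2.87. Only 218 of the 711 single-symbol probe sets are down, so that median mostly reflects up genes. ZWINT read 10.81 and 10.91 in shControl cells and 9.55 and 9.74 in shPCAF cells, nearly the steps of FOXM1, a likeness for which it was picked.

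Nearest to PLK1 were ESPL1, the cohesin-cleaving protease separase, at 0.0718, the sugar reductase DCXR at 0.0771 and the transcription factor E2F2 at 0.0847. CDK1 was closest to MIS18A, a centromere protein, at 0.027, then the RNA-binding protein HNRNPD at 0.0457 and TLCD1 at 0.0533. MIS18A read 9.66 and 9.45 in shControl cells and 8.68 and 8.83 in shPCAF cells. It was picked for likeness over these arrays, so sharing the spread between controls seen in CDK1 is no separate result. CDCA3 had no neighbour as close: NMU, the neuropeptide neuromedin U, lay at 0.134, TAF9B, a paralogue of the transcription factor subunit TAF9, at 0.158 and ANAPC5 at 0.236. Falls as large as that of CDCA3 were scarce: only 3 single-symbol probe sets of the table fell further, against 148 for CDK1. HNRNPD and ANAPC5 stand in the undescribed block of low identifiers.

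The 4 genes were not one another's nearest. PLK1 was the nearest of the other members to FOXM1, at rank 27 and a distance of 0.251, and CDK1 and CDCA3 were farthest apart at 1.03. FOXM1 and CDCA3 lie on chromosome 12, CDK1 on chromosome 10 and PLK1 on chromosome 16. The locus of FOXM1 overlaps RHNO1, that of PLK1 overlaps ERN2 and that of CDCA3 overlaps GNB3, and the files do not give the probes' positions or strand. None of the 16 genes next to the 4, taking 2 on each side, is in the authors' deposited table. As that table names only 759 of the 33297 probe sets, their absence says little about these loci. Which of the 16 the arrays measured is not known here.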

How the data were processed

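Arrays were grouped by sample title, 2 per group. The authors deposited 1 log2 signal per probe set and array (3.62 to 14.21). The submitters' processing notes name Affymetrix Expression Console and limma. How signals were summarised and normalized, and the build, is not given in the sources used here. The authors' deposited table has 852 lines, whose column headed fold change was treated as a score and whose p-value column names no test. Its symbols were matched to RefSeq (GRCh38.p14): 688 lines by symbol, 122 by the synonym of 1 gene, and 42 by neither.

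Differences were fitted in R 4.3.3 by limma 3.58.1 (lmFit, then eBayes, without covariate or filter), with Benjamini-Hochberg adjustment over 33297 probe sets and a threshold of 0.05. The fit was tested on simulated data. Motifs were searched with Python 3.11.15.

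The members and lists were chosen with earlier results of these data known. Named genes are the members, list genes on single-symbol probe sets, the 3 nearest genes of each member, and neighbouring genes. CDH1 and CLDN7 (markers), KIF22 (the edge of the table) and genes that overlap a member were named besides. Alternatives were other normalization, centring, filters, priors, thresholds, a replicate block and leaving out each array.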

Additional observations from a re-analysis of the deposited data

How the results depend on the processing

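The log2 differences of the 4 genes kept their direction and moved by less than the spread between replicates under quantile normalization and median centring. Both filters, the intensity trend with a robust prior and the replicate block leave a difference of group means unchanged. Those settings are thus no check of it. Over all of these settings the differences ranged from -1.53 to -1.44 for CDCA3 and -1.22 to -1.16 for FOXM1. For PLK1 they ranged from -1.04 to -0.98 and for CDK1 from -0.81 to -0.73. Leaving out 1 array gave -1.61 to -1.41, -1.30 to -1.14, -1.12 to -0.97 and -0.88 to -0.69 in the same order. Calls over all probe sets numbered 288 at an adjusted p below 0.01 in place of 4294 at 0.05, and 0 to 2363 with 1 array left out. Of the 33 named list genes 14 were called at 0.01 and 0 to 33 with 1 array left out, counts that include the 4 genes chosen on this contrast. The counts of 0 arose without either shControl array (limma), where a lone array is assumed to vary like the other group. The labels tie same-numbered arrays by number only, and their deviations correlated at r = 0.254 over probe sets. With the replicate block limma called 4584 probe sets and all 33 list genes. Each block holds 1 array per group, so the block cannot change the differences. These were -1.51 for CDCA3, -1.22 for FOXM1, -1.04 for PLK1 and -0.79 for CDK1, as without it. With 2 arrays per group, their number limits the precision, and signal over background was not measured here.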

Other observations

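The promoter letters of the 4 genes were also counted over the down genes of the authors' deposited table. Of 218 down genes on single-symbol probe sets, 176 have a RefSeq promoter window. TTTGAA was found in 39 of them (22.2%), CCAAT in 97 (55.1%) and both in 23 (13.1%), where 18.2%, 39.7% and 7.26% of all genes with a window hold them. The forkhead core TGTTTA was found in 13 (7.39%), against 14.7% of all genes. Of the up genes 384 have a window (77.9%, where 80.7% of the down genes have one). TTTGAA was found in 15.1% of these, the CCAAT box in 44.3%, both in 4.69% and the forkhead core in 16.1%. The share with a CCAAT box was therefore above that of all genes among the up genes too. Coverage was similar and incomplete in both sets, and nothing is read from a contrast of up with down genes. All of these shares are descriptions with no test, and the check is void for both sets.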
